A study of Homo sapiens with 11 samples.

Results

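The response of PC-3 cells to a miR-520c duplex was read from 1 array, miR-520c sample 12, set against mock samples 9 and 11 of the same slide. PC-3 is an established human prostate cancer cell line. Members are probes that differed from both mock arrays in the same direction, and by more than the 2 mock arrays differed from each other. Of the 27191 probes with a value in the table, 13844 were members (50.9%), and they carried 11481 of the 30484 gene names of the array. The rule left 8119 probes (29.9%) that moved one way against both mock arrays but within the mock difference, and 5228 (19.2%) that lay between the 2 mock arrays or level with one.

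The study transfected PC-3 cells with dsEcad640, a small RNA duplex directed at the E-cadherin promoter, or with a duplex of miR-520c, miR-520f, miR-302a, miR-373 or miR-372. Mock cells received the transfection reagent and no duplex. RNA was taken 24 h after transfection, and the RNA of 4 transfections was mixed, so that each of the 11 arrays, spread over 3 slides, is 1 pool. With 1 treated array there is no test, and the only measured error is the difference between the 2 mock arrays. Whether these mock arrays hold separate pools is not given in the sources used here.

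MicroRNAs are short RNAs that guide Argonaute proteins to messenger RNAs through a seed at bases 2 to 8, and the paired messages are repressed and often degraded. miR-520c belongs to the primate miRNA cluster of chromosome 19, active in the placenta and in early embryonic cells, and shares its seed with miR-302, miR-372 and miR-373. The type I interferon response is a separate system: sensors of double-stranded RNA such as RIG-I induce interferons, which act through JAK kinases and STAT factors on genes that carry interferon-stimulated response elements.

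The duplex strands are shown because the seed is what miR-520c shares with the other duplexes of the study. The mature sequences are from RefSeq (GRCh38.p14), 5′ to 3′, with bases 2 to 8 in capitals.
hsa-miR-520c-3p: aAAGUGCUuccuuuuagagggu
hsa-miR-372-3p: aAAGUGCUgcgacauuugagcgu
hsa-miR-373-3p: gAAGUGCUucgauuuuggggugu
hsa-miR-302a-3p: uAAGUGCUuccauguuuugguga
hsa-miR-520f-3p: aAGUGCUUccuuuuagaggguu
hsa-miR-520c-5p: cUCUAGAGggaagcacuuucug
miR-520c-3p, of 22 bases, lies at chr19:53707506-53707527 on the plus strand. Its seed AAGUGCU, which pairs with AGCACTT in DNA letters, is also that of miR-372, miR-373 and miR-302a. The seed of miR-520f is offset by 1 base and reads AGUGCUU. The opposite strand, miR-520c-5p, has the unrelated seed UCUAGAG. As the study describes it, the antisense strand of dsEcad640 carries the common seed as well.

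All values below are log2 values of the table that the authors deposited, unless another scale is named, and a difference of 1 is a 2-fold change. The miR-520c array was dimmer than the other 3 arrays of its slide before scaling: its median log2 processed signal was 5.84, against 6.38 on mock sample 9, 6.33 on mock sample 11 and 6.39 on miR-372 sample 10. Its share of probes well above background was 68.5%, against 69.9%, 72.7% and 71.4%. In the table, the quartiles of these 4 arrays nearly coincided. miR-372 sample 4, on another slide, stands apart: 88.1% of its probes passed this mark, and the other 10 arrays ranged from 54.3 to 72.7%.

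The PC-3 markers KRT8, KRT18, VIM, CD44, CAV1 and EGFR had all of their 12 probes in the table. Of these 12, 7 were raised members (58.3%) and 3 lowered members (25%). Of 6 genes known as low or deleted in PC-3 cells, 5 probes were in the table and 3 of them were raised members (60%, against 25.8% of all probes). KLK3 was raised on both of its probes in the table, at 14.97 against 13.04 and 13.79 and at 4.69 against 3.89 and 4.20, while a further KLK3 probe was not well above background. KLK2 read 6.28 against 5.72 and 5.86 on its raised probe. Of 6 marker genes of blood, endothelial and connective tissue cells, 5 probes were in the table and 3 of them were raised members (60%), for COL1A1, CD79A and CD3E, while PTPRC, the defining marker of leukocytes, was not well above background. The summed linear signal of these 5 probes was 1079 under miR-520c and 677 and 654 in mock. The part of these marker genes in the results was not tested.

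Among the members, 7017 probes were raised and 6827 were lowered. Over all probes these are 25.8% raised and 25.1% lowered, which is the background for every list below. The median smaller difference, the lesser of the 2 differences from mock, was 0.40 for raised and -0.42 for lowered members. The median difference between the 2 mock arrays was 0.21 over all probes, and the median change of all probes was 0.01. The balance of directions depended on the scaling: after normexp background correction, 10807 probes of the table were raised and 4370 lowered. With probes outside the table, 30432 in all, 13395 were raised and 4380 lowered, and the median change of these 30432 probes was 0.21.

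A difference of 2-fold or more against both mock arrays was found for 562 raised probes (2.07%) and 533 lowered probes (1.96%). After normexp correction these counts were 420 and 176 among the probes of the table, and 480 and 177 with probes outside it. Against mock sample 9 alone they were 1402 and 1418, and against mock sample 11 alone 751 and 737. At the edge of the rule, the 100 members closest to it had a median smaller difference of 0.15 with a median mock difference of 0.14, and the 100 probes just outside had 0.14 and 0.14.

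**Figure D1:**
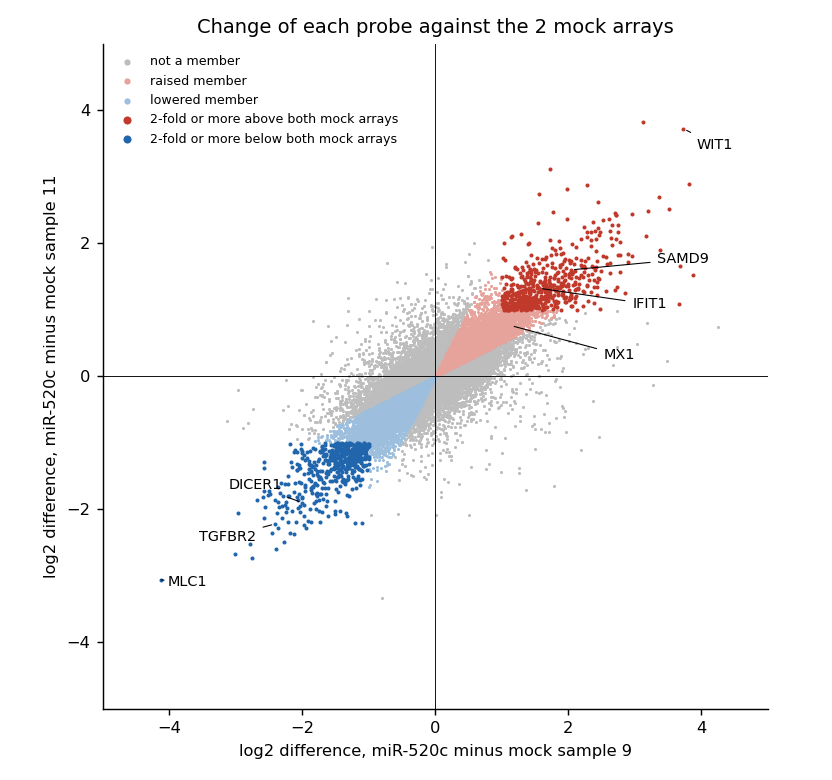
Each point is 1 of 27191 probes, placed by its log2 difference between miR-520c and mock sample 9 (x axis) and mock sample 11 (y axis). Members fill the wedges where both differences exceed the mock difference, the 562 and 533 probes past 2-fold lie at the upper right and lower left, and MLC1 and WIT1 stand at the far ends.

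Among the most lowered genes, TGFBR2, the type II receptor of TGF-beta and a known target of the family, read 10.79 under miR-520c against 13.20 on mock sample 9 and 13.01 on mock sample 11 (probe at hg18 chr3:30710167-30710226). Its smaller difference was -2.22, over 10 times the mock difference of 0.19, and its second probe was a lowered member too. CMPK (CMPK1), a kinase of pyrimidine nucleotides, read 8.48 against 11.24 and 11.22. RAB32, a small GTPase of vesicle transport, read 9.41 against 11.80 and 12.01. In each of these the miR-520c value lay far below mock values that nearly coincided.

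MLC1, a membrane protein of astrocytes, had the lowest smaller difference, at -3.06, from 4.54 under miR-520c against 8.67 and 7.60. Its mock values differed by 1.07. TMEM50B, a membrane protein of the secretory pathway, read 8.52 against 11.53 and 11.19, a smaller difference of -2.67. CYBRD1, a ferric reductase, read 5.78 against 8.15 and 8.06. The other lowered genes of the leading 15 had smaller differences of -2.18 to -1.98: VAMP3 (vesicle fusion), DRAM (DRAM1, autophagy), ELK4 (a partner of serum response factor), DAZAP2, AOF1 (KDM1B, a histone demethylase), SCARA5 (a ferritin receptor), GSTM3 (glutathione conjugation), GNPDA2 (amino sugar metabolism) and FAM107A. SCARA5 had a second probe that was a raised member, at 8.32 against 7.74 and 7.56. The probes of DRAM and GSTM3 that were no members read under 5.5 on every array.

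The most raised probe was that of WIT1, a non-coding transcript next to WT1, with 8.92 against 5.18 and 5.19 and a smaller difference of 3.73. CYP4F2, a fatty acid hydroxylase, followed at 7.97 against 4.14 and 5.07. SERPINB2, an inhibitor of urokinase, read 10.43 against 7.91 and 8.07. MYCN, the neuronal MYC transcription factor, read 11.20 against 8.75 and 8.96. These probes were higher than both mock arrays by more than 10 times the mock difference, apart from CYP4F2, whose mock values differed by 0.92.

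The remaining 11 raised genes had smaller differences of 2.11 to 2.45. They were NGFB (nerve growth factor), ZNF575, ITSN2 (endocytosis), GRIN1 (a subunit of NMDA receptors), MUTYH (DNA repair), MAP7D3 (microtubules), CDH24 (a cadherin), ACVR2B (an activin receptor), ANKRD1 (a target of YAP), NEUROG3 (a transcription factor of endocrine cells) and SCRT2. For 3 of them the gene's other probes were lowered members: ZNF575 read 12.37 against 9.41 and 9.92 on its raised probe and 6.67 against 7.22 and 7.14 on the other. ITSN2 had 1 raised and 2 lowered probes, and MUTYH 1 of each. A gene name therefore did not settle the direction for these, and 512 gene names in all had both a raised and a lowered member.

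On the same slide miR-372 sample 10 gave values to set beside these. TGFBR2 read 11.19, CMPK 9.29, RAB32 9.83 and MLC1 7.25 under miR-372. WIT1 read 5.90, CYP4F2 6.78, SERPINB2 9.91 and MYCN 10.43. ANKRD1 read higher under miR-372, at 7.13, than under miR-520c, at 6.61. The miR-372 array shares its mock arrays with miR-520c, so no agreement between the 2 duplexes was counted.

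**Figure D2:**
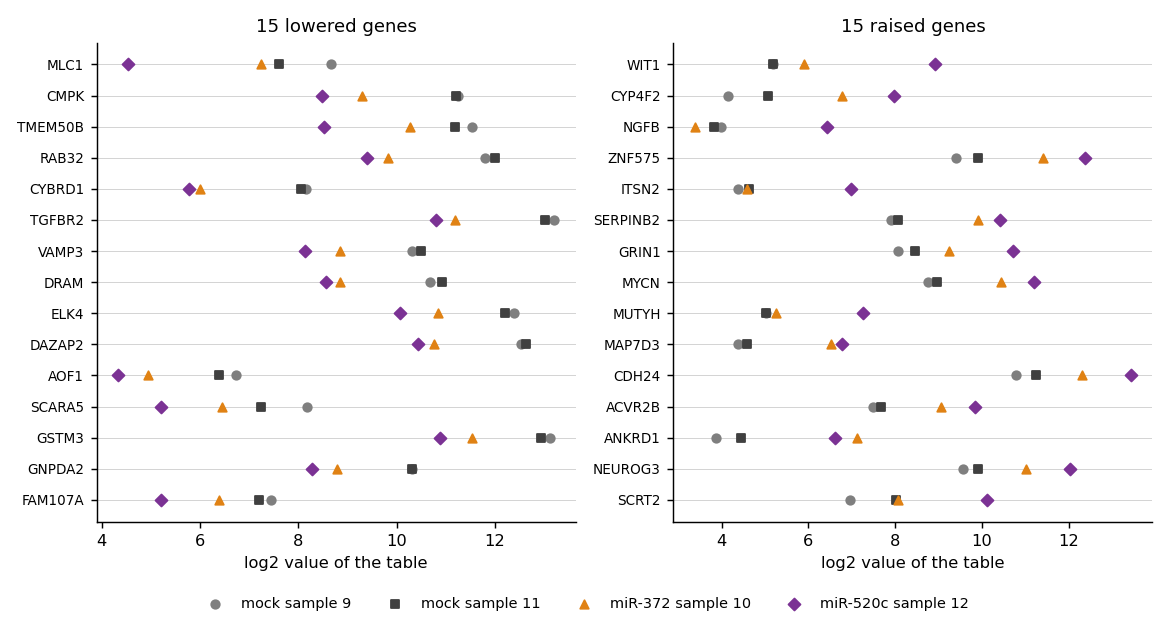
Log2 values of the table (x axis) of the 15 lowered (left) and 15 raised (right) genes with the largest smaller difference, 1 probe a gene, on the 4 arrays of the slide. The miR-520c diamonds lie outside both mock symbols in every row, as the rule requires, by 1.98 to 3.73.

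The arrays of the other 2 slides share no sample with the rule, and they separated the 2 directions. Of the probes lowered 2-fold by miR-520c, 93.3% were below their own mock array with miR-302a (462 of 495), 93.0% with miR-373 (372 of 400), 91.3% with miR-372 sample 4 (452 of 495), 90.7% with dsEcad640 (449 of 495) and 81.8% with miR-520f (327 of 400). Over all probes the shares below mock were 48.7%, 54.3%, 57.8%, 49.0% and 53.8%. The duplex with the offset seed, miR-520f, had the lowest share of the 5 on this scale, whereas on the 75th percentile scale of the scanner files miR-372 sample 4 was lower, at 72.1%, than miR-520f, at 82.2%. The labels of the miR-520f array conflict, since its title reads miR-530f and its other fields miR-520f.

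Probes raised 2-fold by miR-520c did not show the like. They were above mock in 47.1% with miR-302a (240 of 510), 43.5% with dsEcad640 (222 of 510), 38.2% with miR-520f (176 of 461), 36.4% with miR-373 (168 of 461) and 34.5% with miR-372 sample 4 (176 of 510). Each share lay under that of all probes, which was 51.2%, 50.9%, 46.1%, 45.5% and 42.1%. Raised members of any size were above mock more often than all probes, from 54.4% with miR-372 sample 4 to 68.7% with miR-302a. The 2-fold probes and the smaller members thus stood on opposite sides of the background.

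Below mock with each of dsEcad640, miR-302a, miR-372 sample 4 and miR-373 were 327 of 400 probes lowered 2-fold (81.8%), against 28.8% of all probes. Without miR-372 sample 4 these were 346 of 400 (86.5%), against 32.8%. Above mock with the same 4 duplexes were 115 of 459 probes raised 2-fold (25.1%), against 25.6% of all probes, and below mock with all 4 were 214 of 459 (46.6%), against 28.8%. The share for miR-372 sample 4 moved most with scaling: on the 75th percentile scale of the scanner files, 72.1% of the probes lowered 2-fold lay below mock and 47.6% of those raised 2-fold lay above. In this table the median difference of the lowered 2-fold probes was -0.83 with miR-372 sample 4, -0.68 with dsEcad640, -0.54 with miR-302a, -0.48 with miR-373 and -0.38 with miR-520f.

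The single genes followed the counts. All 15 leading lowered genes were below mock with dsEcad640, miR-302a and miR-372 sample 4, with differences of -3.28 to -0.85 over the 3 arrays. The 13 that had values in the other slide were below mock with miR-373 and miR-520f as well. TGFBR2 differed by -2.14 with dsEcad640, -1.90 with miR-302a, -1.91 with miR-372, -1.48 with miR-373 and -1.18 with miR-520f. Of the 15 leading raised genes, 10 had values there, and only 2 to 4 of the 10 were above mock with any one duplex.

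Gene names, gene lengths and promoters, which the rule did not use, differed between the 2 directions. Of the raised 2-fold probes, 44.0% had a current gene name with a promoter in RefSeq, against 64.7% of the lowered 2-fold probes and 59.1% of all probes. The median length of the named genes was 21.6 kb for raised 2-fold, 47.5 kb for lowered 2-fold and 30.7 kb for all probes. Median promoter GC content was 66.7%, 64.3% and 65.3%. The mock values themselves entered the rule, and are given as a description. The median mock level was 7.71 for raised 2-fold and 8.08 for lowered 2-fold, both below the 8.51 of all probes. Mock sample 11 read above mock sample 9 in 78.3% of the raised 2-fold probes, 28.5% of the lowered 2-fold probes and 51.2% of all probes. Whether these features bear on the differences was not tested.

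Of the 23 genes listed as known targets of the family, with ZEB1, 20 had 33 probes in the table. Lowered members were 23 of these probes (69.7%, against 25.1% of all probes), and 3 were raised (9.09%, against 25.8%). The median over the genes was -0.56. In bulk RNA, fewer cells of a type and less RNA per cell cannot be told apart. The list was drawn up from earlier knowledge of the family and with results of these arrays known, so its direction is not independent evidence.

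DAZAP2 read 10.44 against 12.54 and 12.63. MICA, a stress ligand of natural killer cells, read 8.30 against 10.13 and 10.21. A second probe that the files name MICA lies apart from it, at hg18 chr6:31431929-31431988, and read 11.42 against 11.72 and 11.66, so that it may not measure this gene. Without it, 22 of 32 probes of the list were lowered (68.8%). MBD2, a reader of methylated DNA, read 11.75 against 13.71 and 13.47. LATS2, a kinase of the Hippo pathway, read 7.44 against 8.87 and 8.92. BMPR2, RBL2, CCND1, RHOC, ARID4B and TNFAIP1 were lowered by smaller differences of -0.92 to -0.45. A further probe of CCND1, no member, read 12.55 against 12.31 and 12.01, above both mock arrays. On the other slides both lowered probes of CCND1 lay above mock with each duplex, by 0.03 to 0.42. The 2 probes of CDKN1A, the cell cycle inhibitor p21, were no members: the brighter one read 9.31 against 9.44 and 9.86.

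Of the raised probes on the list, CD44 read 14.29 against 13.93 and 14.06, and AOF2 (KDM1A) read 8.42 against 8.25 and 8.28. SMARCC2, of a chromatin remodelling complex, had 1 probe raised (15.63 against 14.13 and 14.69) and 1 lowered (12.69 against 13.58 and 13.37). AOF1 had a second probe that was well above background on both mock arrays and not under miR-520c, where it was at least 2.32-fold lower. MBD2 went the other way on its second probe, which was well above background only under miR-520c, at least 3.67-fold higher than mock. The other genes of the list gave the same direction on each of their member probes.

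ZEB1, a repressor of E-cadherin, read 4.29 under miR-520c against 6.33 and 6.06, a smaller difference of -1.77 (probe at hg18 chr10:31852945-31853004). Its mock difference was 0.27, and with miR-372 on the same slide it read 5.77. This was the only ZEB1 probe in the table, and its miR-520c value lay below the lower quartile of that array, 6.24. On the arrays of slide 1, ZEB1 differed from mock by -0.92 with dsEcad640, -0.63 with miR-302a and -1.12 with miR-372. It had no value with miR-373 or miR-520f. CDH1, the gene of E-cadherin, read 7.20 against 6.64 and 5.95. It lay above both mock arrays, by 0.55 at the least, but the mock arrays differed by 0.70, so that it was not a member.

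Genes of epithelial junctions and differentiation were raised more often than the background: 18 of 31 probes were raised (58.1%, against 25.8%) and 2 lowered (6.45%, against 25.1%). Their median over 22 genes was 0.51. AP1M2, an adaptor of epithelial sorting, read 5.98 against 4.43 and 3.67. MARVELD2 (tricellulin) read 6.49 against 5.24 and 5.25, with both probes raised. TACSTD1 (EPCAM) read 13.03 against 11.46 and 12.20. All 4 probes of KRT18, a keratin of simple epithelia, were raised, and its many processed copies in the genome may share signal. On the other slides the medians of the list were 0.17 with dsEcad640, 0.16 with miR-302a, 0.19 with miR-372, 0.18 with miR-373 and 0.24 with miR-520f.

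E-box repressors and mesenchymal genes had 7 of 18 probes lowered (38.9%) and 3 raised (16.7%), with a median of -0.36. ZEB2, a relative of ZEB1, read 5.82 against 7.03 and 7.01 on its 1 probe in the table. The study did not detect ZEB2 in PC-3 cells by quantitative RT-PCR, and proposes that its level there is very low. TWIST1 was lowered by a smaller difference of -0.74 with both of its probes. VIM (vimentin) read 15.72 against 16.40 and 16.23 on its lowered probe. ITGA5, an integrin, and TCF3 were raised, by 0.60 and 0.45.

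The interferon-stimulated genes also had more raised and fewer lowered members than the background. Of 57 listed genes, 54 had 85 probes in the table, and 38 of these were raised (44.7%, against 25.8%) while 7 were lowered (8.24%, against 25.1%). By gene, 25 had raised members only, 5 lowered only, 2 both and 22 none. One raised probe, named IFI6 in the files, lies on chromosome 14 and the gene on chromosome 1. Without it, 37 of 84 probes (44.0%) and 24 genes were raised. The median over the genes was 0.47, at 0.67 against mock sample 9 and 0.30 against mock sample 11. Mock sample 11 itself was higher than mock sample 9 by a median of 0.24.

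SAMD9, an antiviral factor, was raised with all 4 of its probes, and its leading probe read 13.16 against 11.12 and 11.56 (hg18 chr7:92566815-92566874). IFIT1, which binds viral RNA ends, read 14.86 against 13.30 and 13.53 (hg18 chr10:91153418-91153477). MX2, a dynamin-like GTPase, read 11.25 against 9.84 and 10.10. Its relative MX1 read 14.73 against 13.60 and 13.97 (hg18 chr21:41752884-41752943). For each of these the miR-520c value lay above both mock values by at least 2 times the mock difference.

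Some regulators of the response were among the raised members, while STAT2 was no member. IRF7, the transcription factor that amplifies interferon production, read 7.69 against 5.59 and 6.57, and its second, brighter probe read 14.27 against 12.64 and 13.25. USP18, which removes ISG15 from proteins, read 12.59 against 11.36 and 11.61. ISGF3G (IRF9), the DNA-binding part of the interferon-activated factor, read 4.78 against 3.80 and 3.63 on a dim probe and 9.12 against 8.46 and 8.84 on the brighter one, which was no member. IRF1 was a member at 8.03 against 7.80 and 7.88. BATF2, a further transcription factor, read 7.41 against 6.83 and 6.59.

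Among the effectors, PLSCR1 read 13.16 against 11.75 and 12.06, and IFIT2 read 14.07 against 12.30 and 13.10. IFIT3, IFIT5, IFI44L, HERC5, IFITM1, OAS3 and SP110 were raised by smaller differences of 0.33 to 0.88. Of the PARP family, PARP12 read 9.50 against 7.98 and 8.59, PARP10 had 1 probe raised and 1 lowered, and PARP14 and its neighbour DTX3L were raised on 1 probe each. PML, the organiser of nuclear bodies, was raised on 4 of 6 probes, whereas SP100 of the same bodies was raised on 1 probe and lowered on another. TRIM21 was a member by 0.11 only. OAS3, DTX3L and PARP14 each had a further probe in the table that was no member. IFI6 read 11.69 against 10.76 and 11.42 on its probe on chromosome 1 and was no member.

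The lowered genes were PSMB8 (9.27 against 10.69 and 10.46) and PSMB9 (9.74 against 10.26 and 10.40), subunits of the immunoproteasome, with IFITM3, IFI35 and NMI, lowered by -0.45 to -0.32. IFITM3 and IFITM1 have near-identical relatives, and their probes may share signal. Some well-known genes of the response were not members. ISG15 read 16.95 against 16.27 and 17.04, between the mock arrays. RSAD2, IFI16 and OASL lay above both mock arrays, but by less than the mock arrays differed from each other. RSAD2 read 9.79 against 8.84 and 9.37, and OASL read 12.55 against 10.54 and 11.91. IFI16 read 11.15 against 8.42 and 10.71 on one probe and 10.26 against 7.08 and 9.46 on the other. These non-members were named after their values were seen. EPSTI1, not in the table, was well above background only under miR-520c on one probe, at least 2.96-fold above mock. Its other probe was not well above background on any array of the slide. A probe of XAF1 outside the table went the other way. It was well above background on both mock arrays and not under miR-520c, at least 1.16-fold lower.

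The miR-372 array of the same slide stood on the far side of mock. The interferon-stimulated genes were higher under miR-520c than under miR-372 sample 10 in 53 of 54 genes, by a median of 1.42. Against the mean of the mock arrays, their median was -0.98 with miR-372 sample 10 and 0.47 with miR-520c. Over all probes these medians were 0.0013 and 0.01. The share of all probes that were higher under miR-520c than under miR-372 was not counted. IFIT1 read 12.30, MX1 11.72, MX2 7.45 and SAMD9 9.81 under miR-372. IFI44L read 5.49 under miR-372, 9.55 under miR-520c, and 8.50 and 8.72 in mock. With 1 array each, this difference has no replicate check.

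On the other slides the list lay mostly below mock with 3 of the 5 duplexes. It was above mock in 3 of 53 genes with miR-302a (median -0.39), 1 of 53 with miR-372 sample 4 (median -0.78) and 1 of 53 with miR-373 (median -0.79). With dsEcad640 it was above mock in 25 of 53 genes (median -0.00), and with miR-520f in 34 of 53 (median 0.20). IFIT1 differed from mock by 0.50 with dsEcad640, 0.78 with miR-520f, -0.26 with miR-302a, -0.94 with miR-372 and -0.86 with miR-373. dsEcad640 and miR-520f thus gave the higher values, and the other duplexes the lower ones.

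To compare all 11 arrays, the level of 53 interferon-stimulated genes was taken from the processed signal after subtracting the 75th percentile array by array, over 73 probes well above background on every array. The median was highest with miR-520c, at 0.71. Mock sample 11 followed at 0.46, mock sample 9 at 0.26 and miR-520f at 0.21. The mock arrays of the other slides were at -0.07 and 0.01 and dsEcad640 at 0.02. miR-302a was at -0.45, the miR-372 arrays at -0.71 and -0.76, and miR-373 at -0.82. The step from mock sample 11 to miR-520c, of one array each, was of the order of the step between the mock arrays of the slide.

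Sensors of double-stranded RNA and their signalling had 6 of 16 probes raised (37.5%) and 2 lowered (12.5%), with a median of 0.26. DDX58 (RIG-I), a sensor of RNA with triphosphate ends, read 11.97 against 10.37 and 11.17, and 9.46 under miR-372. ADAR, which edits double-stranded RNA, was raised on both of its probes, the leading one at 7.08 against 5.46 and 5.77. IKBKE, a kinase upstream of interferon genes, read 7.15 against 6.17 and 6.31. TRIM25, which activates RIG-I, and VISA (MAVS), its adaptor, were raised by 0.43 and 0.37 on 1 probe each. The other probe of each was no member and lay between the mock arrays. It read 8.91 against 9.20 and 8.75 for TRIM25, and 5.29 against 5.47 and 4.67 for VISA. EIF2AK2 (PKR) and TICAM1 (TRIF) were lowered members by -0.08 and -0.07, and each changed sign under 1 other scaling.

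Interferons, their receptors and their kinases did not move as the stimulated genes did: 2 of 17 probes were raised (11.8%) and 4 lowered (23.5%), with a median of 0.08. IL28A, a lambda interferon (IFNL2) with near-identical relatives, read 6.71 against 5.37 and 5.75. Its receptor IL28RA (IFNLR1) read 6.81 against 7.60 and 7.83. JAK1, the kinase of interferon receptors, was lowered with both probes, the leading one at 8.54 against 9.66 and 9.40. The probes of TYK2 and of SOCS3, a feedback inhibitor, did not run one way. TYK2 was lowered by -0.18 on one probe and read 7.64 on the other, above both mock arrays but within their difference. SOCS3 was raised on a dim probe, at 5.32 against 4.67 and 4.76, and its brighter probe, no member, read 10.27 against 10.98 and 10.54. IFNB1 was outside the table and was well above background under miR-520c and on mock sample 11, not on mock sample 9.

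NF-kappaB and inflammatory genes gave 1 member among 20 probes, LIF, a cytokine, lowered at 9.57 against 10.42 and 10.34. The mock arrays themselves parted here, with mock sample 11 above mock sample 9 by a median of 1.02 over 17 genes. IL6 read 8.48 under miR-520c against 7.68 on mock sample 9 and 9.79 on mock sample 11. IL8 read 7.93 against 8.72 and 11.26. Whether the same difference between the mock cells bears on the interferon-stimulated genes was not tested.

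The promoters of interferon-stimulated genes are shown because a response element in them is what the group is known to share. A core element, GAAANNGAAA or its reverse complement TTTCNNTTTC, in which N is any base, was searched on both strands from 250 bases before to 50 bases after the start of each gene in RefSeq (GRCh38.p14), and overlapping matches were joined. It was found in 15 of 19 genes of the list with a raised member and a promoter in RefSeq (78.9%; 14 of 18 without IFI6), in 2 of 6 with a lowered member (33.3%), and in 27 of 44 of the list's genes in the table (61.4%). Over all 27305 promoters it was found in 3.65%. Among all raised members the share was 3.12% (101 of 3234) and among all lowered members 2.28% (82 of 3592). A match describes the letters and is not shown to be a site.

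The 4 promoters below belong to raised members described above, with the element in capitals, and read 5′ to 3′ along the gene. They lie at chr10:89392373-89392672 on the plus strand (IFIT1), chr10:89327747-89328046 on the plus strand (IFIT3), chr21:41420308-41420607 on the plus strand (MX1) and chr7:93117930-93118229 on the minus strand (SAMD9).
IFIT1: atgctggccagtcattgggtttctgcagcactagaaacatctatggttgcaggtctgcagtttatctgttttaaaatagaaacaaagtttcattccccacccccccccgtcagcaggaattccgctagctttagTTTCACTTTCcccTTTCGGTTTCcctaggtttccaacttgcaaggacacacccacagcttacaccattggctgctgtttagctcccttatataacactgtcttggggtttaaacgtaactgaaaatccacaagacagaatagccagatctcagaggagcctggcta
IFIT3: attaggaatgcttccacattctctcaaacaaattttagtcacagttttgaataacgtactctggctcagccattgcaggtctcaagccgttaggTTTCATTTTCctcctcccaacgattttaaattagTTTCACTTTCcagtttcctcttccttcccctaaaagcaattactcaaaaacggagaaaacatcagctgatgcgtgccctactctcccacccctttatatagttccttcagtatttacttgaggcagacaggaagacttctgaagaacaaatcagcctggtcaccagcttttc
MX1: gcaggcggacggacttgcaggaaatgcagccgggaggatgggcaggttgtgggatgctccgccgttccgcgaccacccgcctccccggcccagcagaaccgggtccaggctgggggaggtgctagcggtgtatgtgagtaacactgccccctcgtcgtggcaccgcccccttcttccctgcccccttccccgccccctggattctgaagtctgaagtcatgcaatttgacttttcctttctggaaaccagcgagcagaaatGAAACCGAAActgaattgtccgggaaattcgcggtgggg
SAMD9: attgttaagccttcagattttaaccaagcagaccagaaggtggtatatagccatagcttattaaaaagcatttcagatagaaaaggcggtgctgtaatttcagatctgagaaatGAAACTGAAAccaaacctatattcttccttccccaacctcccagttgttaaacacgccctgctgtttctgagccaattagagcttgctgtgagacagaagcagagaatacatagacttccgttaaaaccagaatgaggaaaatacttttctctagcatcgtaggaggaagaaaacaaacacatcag
IFIT1 and IFIT3 hold 2 separate elements each, and MX1 and SAMD9 hold 1. In IFIT1 the first begins 116 bases before the start of the gene, and in SAMD9 the element begins 136 bases before it. The element of MX1 lies just after the start, within the transcribed part of the window.

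Of genes that act in the cell cycle, the G1 inhibitors had 9 of 17 probes lowered (52.9%, against 25.1% of all probes) and 2 raised (11.8%), with a median of -0.28. CDKN2B, an inhibitor of CDK4 and CDK6 induced by TGF-beta, read 6.98 against 9.25 and 8.60 with both probes lowered. RBL1 and RBL2, relatives of the retinoblastoma protein, were lowered with both probes each, RBL1 at 4.39 against 5.74 and 5.97. CDKN1C and CDKN1B, by contrast, were raised by 0.53 and 0.50.

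S phase genes had 9 of 29 probes lowered (31.0%) and 4 raised (13.8%), and G2/M genes 8 of 26 lowered (30.8%) and 3 raised (11.5%). Their lowered shares were near the 25.1% of all probes, and their raised shares were below the 25.8%. Their medians were -0.10 and -0.16, and that of the G2/M genes was 0.0082 on the 75th percentile scale. MCM7, a subunit of the replicative helicase and the host gene of a miRNA cluster, read 14.22 against 15.64 and 15.62, a gap of 1.41 with mock arrays 0.02 apart. E2F1 read 11.49 against 12.23 and 12.30. CCNE1 (cyclin E1) was raised, at 12.10 against 11.04 and 11.40. NUSAP1, TTK and BUB1, of the mitotic spindle, were lowered by -0.72 to -0.50.

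The machinery of small RNAs had 8 of 19 probes lowered (42.1%) and 5 raised (26.3%). DICER1, which cuts miRNA precursors, read 7.16 against 9.16 and 9.06, and both of its probes were lowered. EIF2C1 (AGO1), an Argonaute, read 10.34 against 11.86 and 11.53. Some other factors went the other way. XPO5, which exports precursors, read 9.60 against 8.73 and 8.83. TARBP2, a partner of DICER1, read 10.95 against 10.11 and 10.29, and RNASEN (DROSHA) was raised by 0.32. TNRC6B had 2 raised probes and 1 lowered. DICER1 differed from mock by -0.92 with dsEcad640, -0.55 with miR-302a, -0.93 with miR-372, -0.44 with miR-373 and -0.25 with miR-520f.

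Lists closer to the background were those of YAP targets, with 3 of 15 probes raised and 3 lowered, and of cholesterol and fatty acid synthesis, with 7 of 37 raised (18.9%) and 11 lowered (29.7%). Within YAP targets, CTGF (CCN2) and CYR61 (CCN1) were lowered by -0.37 and -0.36 while ANKRD1 was raised. In sterol synthesis IDI1 read 10.17 against 10.94 and 10.78. Of 22 probes of ATF4 and endoplasmic reticulum stress genes, 5 were lowered and 1 raised. HSPA5 (BiP), a chaperone, read 10.46 against 12.05 and 11.72 with both probes lowered, and DDIT4, an inhibitor of mTORC1, read 9.13 against 10.37 and 10.04.

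To reach probes that the table does not hold, probes inside and outside it were compared on the 75th percentile scale. There, 30432 probes with a signal on all 3 arrays passed the background mark on 1 or more. Most of them are in the table: of 30510 probes that passed the mark, 3319 are not. Of the 30432, 1002 (3.29%) were well above background on both mock arrays and not under miR-520c. A further 295 (0.969%) were so under miR-520c and on neither mock array. The bound, taken from the lowest signal well above background on the dim array, was at least 2-fold for 106 and 227 of them. RNASE4, a secreted ribonuclease, was at least 22.2-fold lower under miR-520c. CROT, of peroxisomal fatty acid transport, was at least 6.11-fold lower, EPHA7, an ephrin receptor, 6.02-fold and VLDLR, a lipoprotein receptor, 4.20-fold. These 4 were chosen after their values were seen.

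Of the 1002 probes lost under miR-520c, 832 were well above background on miR-372 sample 10. Of the 295 probes seen only under miR-520c, 54 were well above background on miR-372 sample 10, and 60 were not above background on any of the other 8 arrays. The miR-520c array was also the dimmest of its slide, as given above. Whether this bears on the number of lost probes was not tested.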

How the data were processed

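The authors hybridised Cy3-labelled cRNA to Agilent whole human genome arrays and deposited scanner files, per the file headers made by Feature Extraction version 10.5.1.1, whose intensity (processed signal) has background subtracted and trends removed within each array. They also deposited a table of log2 values, which keeps each array's order of processed signals and equalizes quartiles within a set of arrays; the normalization is not named in the sources used here. It holds 27191 probes of set 3, nearly all well above background on each array of the set. Probe coordinates are those of hg18.

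The log2 values of the table were compared probe by probe. The rule and the list medians were computed with Python 3.11.15, numpy 2.4.6 and pandas 2.3.3, and the normexp alternative (offset 50) with R 4.3.3 and limma 3.58.1. The rule was run on simulated data only to check the code, with planted changes far larger than the median change of real members. A probe without a change can also become a member through noise, and the member count was not corrected for this. Older gene names were matched to RefSeq for 19789 probes (72.8%). Named are the 15 genes with the largest smaller difference in each direction, all members of the interferon, sensor, receptor and family lists, up to 4 members a direction of other lists, CDH1 and ZEB1. Some genes that this rule names are not reported here. For list medians, the probes of a gene were averaged. The members and gene lists were chosen with earlier results of these data known. Scanner values of marked outlier spots were not used. Alternatives were the 75th percentile, normexp and quantile scalings, a wider margin, a fixed minimum, 1 probe mean per gene and each mock array alone. The number of arrays, 1 against 2, limits the precision, and no test was made.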

Additional observations from a re-analysis of the deposited data

How the results depend on the processing

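Members raised were 13395 (probes of the table only: 10807) and members lowered 4380 (4370) with normexp. A margin of 2 mock differences left 4667 raised, and a smaller difference of at least 0.5 left 2656 raised and 2704 lowered. On the 75th percentile scale 1030 probes were raised 2-fold and 838 lowered, with quantile normalization 882 and 966, both of which add probes outside the table, and 177 (176 of the table) were lowered 2-fold with normexp. By gene, 326 were lowered 2-fold. Leaving out 1 mock array gave 751 to 1402 raised and 737 to 1418 lowered. The median of the family list was -0.41 under the 75th percentile and normexp scalings, and -0.68 to -0.52 leaving out 1 mock array. In the other slides, on the 75th percentile scale, probes lowered 2-fold lay below mock in 93.7% with dsEcad640, 96.0% with miR-302a and 72.1% with miR-372, and those raised 2-fold above mock in 47.6% with miR-372. Of 152 named probes, 2 changed sign: EIF2AK2 to 0.0066 (75th percentile) and TICAM1 to 0.036 (normexp), as did the G2/M median, to 0.0082 (75th percentile). The scalings restricted to the probes of the table, and the counts without the displaced IFI6 and MICA probes, which left both list medians at 0.47 and -0.56, were chosen after seeing the data, and the causes of these changes were not tested. No paired analysis was possible, because there is 1 treated array and the labels give no pairing with a mock array. One pool per array limits every value here, and probes near background carry the largest scatter.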
